A study of Mus musculus with 2 samples.

Results

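Mast cell and basophil-primed cells were selected from single-cell RNA sequencing of mouse LSK cells, the lineage-negative bone marrow cells that carry both Sca1 and c-Kit on their surface. A cell was a member when the UMIs (unique molecular identifiers, counted transcripts) of 6 genes, Mcpt8, Prss34, Ms4a2, Fcer1a, Cyp11a1 and Hdc, summed to at least 3 per 10000 of its UMIs, and when 5 B lineage genes (Ebf1, Cd79a, Vpreb1, Vpreb3 and Igll1) summed to under 10. Of 12318 cells kept after filtering, 179 met this rule, 39 of 7190 in the control library and 140 of 5128 in the irradiated library. The control library came from C57BL/6J mice labelled as control. The irradiated library came from C57BL/6J mice that had received 5 Gy to the whole body 15 days earlier. All mice were 6 to 8 weeks old, and both libraries were sorted for LSK cells on the same markers and made with the 10x 3' method. The number of mice behind each library is not given in the sources used here, and with 1 library per group no p-value is possible. The values that chose the cells are used as a description only. The name held for part of them. Further mast cell or basophil genes were carried by 16 cells with high sums, by the cells led by Ms4a2 and by the irradiated cells led by Fcer1a. The cells led by Mcpt8 had few of these genes, with Cpa3 in a minority of cells, and 5 control cells carried mature neutrophil genes. The whole set is therefore called members here. Intervals below are exact 95% intervals for counting error only.

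Mast cells and basophils are granulated blood cells that carry the high-affinity IgE receptor, FcεRI, and release histamine, proteases and cytokines when antigen crosslinks it. Both arise from granulocyte progenitors in which GATA2 is active, and mast cell precursors leave the marrow to mature in tissues, while basophils complete their maturation in the marrow. Of the 6 selecting genes, Mcpt8 and Prss34 encode granule serine proteases known best from basophils, Ms4a2 and Fcer1a encode the beta and alpha chains of FcεRI, Hdc encodes histidine decarboxylase, which makes histamine, and Cyp11a1 encodes the enzyme that starts steroid synthesis from cholesterol. Hdc is not restricted to these lineages, since neutrophils can carry it too.

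On GRCm38, with GENCODE M21, Mcpt8 lies at chr14:56082166-56085273 on the minus strand, Prss34 at chr17:25298394-25300165 on the plus strand, Ms4a2 at chr19:11615523-11623719 on the minus strand and Fcer1a at chr1:173221284-173227214 on the minus strand. Cyp11a1 lies at chr9:58006411-58027023 on the plus strand and Hdc at chr2:126593667-126619299 on the minus strand. The 250 bases before the transcription start are shown for Ms4a2, Fcer1a and Prss34 because the genes were detected together in the highest-scoring cells and because these windows hold the words AGATAA or TGATAA, on either strand (as TTATCT or TTATCA), that GATA factors are known to bind. Capitals mark the matches in the RefSeq windows (GRCm38.p6), written 5′ to 3′ on the gene's strand.
Ms4a2, chr19:11623720-11623969, minus strand: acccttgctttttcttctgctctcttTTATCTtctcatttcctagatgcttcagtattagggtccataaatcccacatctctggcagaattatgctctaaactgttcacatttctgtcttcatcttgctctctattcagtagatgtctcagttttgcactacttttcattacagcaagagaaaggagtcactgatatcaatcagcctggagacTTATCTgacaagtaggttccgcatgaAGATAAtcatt
Fcer1a, chr1:173227230-173227479, minus strand: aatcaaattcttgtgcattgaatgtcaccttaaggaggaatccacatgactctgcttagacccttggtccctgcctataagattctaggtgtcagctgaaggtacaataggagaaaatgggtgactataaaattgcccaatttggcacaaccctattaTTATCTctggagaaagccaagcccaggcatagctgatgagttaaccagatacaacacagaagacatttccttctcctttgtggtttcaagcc
Prss34, chr17:25298144-25298393, plus strand: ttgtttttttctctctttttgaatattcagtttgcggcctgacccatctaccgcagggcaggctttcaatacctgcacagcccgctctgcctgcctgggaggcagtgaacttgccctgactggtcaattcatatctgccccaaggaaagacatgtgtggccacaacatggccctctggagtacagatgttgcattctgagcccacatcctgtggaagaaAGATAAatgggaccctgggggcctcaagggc
The Ms4a2 window held 3 matches, the Fcer1a window 1 and the Prss34 window 1, and none was found in the windows of Mcpt8, Hdc and Cyp11a1 (which has 2 windows). Among 32851 RefSeq windows of this length, 16.6% held at least 1 match and 0.371% held 3 or more. A match describes letters only.

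Barcodes numbered 7686 in control, with 139274656 UMIs in total, and 5596 after irradiation, with 165119247. Kept cells had a median of 16084.5 UMIs in control and 29671 in irradiated cells, and the members' medians were 13249 and 28114. The libraries shared 16 barcodes, and 0 members carried one of them. Among markers of other cells, 1 of 8 T and NK cell genes, 0 of 7 macrophage genes and 1 of 7 endothelial and stromal genes reached a mean of 0.05 per 10000 in members. The 5 irradiated members with a sum of 30 or more differed, with 4 of 4 measured macrophage genes at least 2-fold above the rest of the library (median 45.1 times). These folds rest on few UMIs, since the macrophage list summed to 0.0461 per 10000 over all irradiated members and 0.0501 in the rest. In control members with a sum of 30 or more 0 macrophage genes were measured. The 1 measured endothelial and stromal gene stood at 3.24 and 2.45 times the rest in these cells. Per member, the T and NK list summed to 0 to 10.7 in control and 0 to 12.8 after irradiation, with 4 and 6 of its 8 genes at 0. Shares of a sorted population also depend on the sort gate, whose part was not tested.

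By the rule, members made up 0.542% of control cells (95% interval 0.386 to 0.741) and 2.73% of irradiated cells (2.30 to 3.21). The difference lay in cells with sums below 30. At a sum of 30 or more there were 11 control cells, 0.153% of cells (0.0764 to 0.274), and 5 irradiated cells, 0.0975% (0.0317 to 0.227), so the intervals overlapped. At a sum of 3 to 10 there were 27 control cells (0.376%, 0.248 to 0.546) and 127 irradiated cells (2.48%, 2.07 to 2.94). Between those ranges lay 1 control and 8 irradiated cells. Just below the limit, at a sum of 2 to 3, lay 46 control and 122 irradiated cells, and at 3 to 5 lay 19 and 93, so the limit cut through a continuous range in which most members sat. When every cell was thinned to 5000 UMIs, leaving out 66 control and 59 irradiated cells, the rule took 74 of 7124 control cells (1.04%) and 225 of 5069 irradiated cells (4.44%), while a sum of 30 or more was met by 11 and 6 cells. At that depth 3 per 10000 is met by 2 UMIs.

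**Figure D1:**
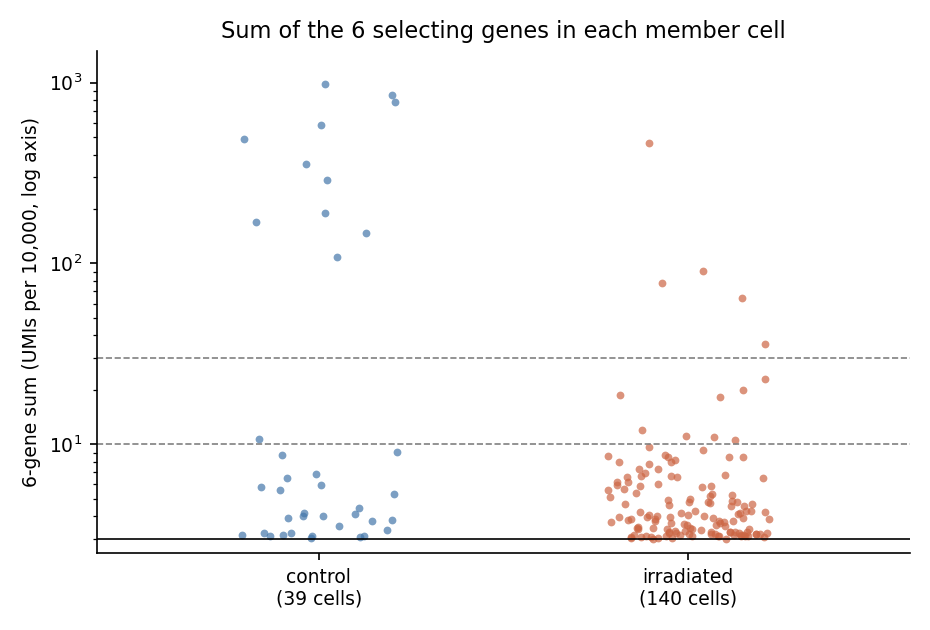
Sum of the 6 selecting genes (UMIs per 10000, log axis) in each of the 39 control and 140 irradiated members, 1 point per cell; the solid line is the limit of 3 and the dashed lines stand at 10 and 30. The 11 high control cells sit between 109 and 981, apart from the others, and 1 irradiated cell, at 465, sits above the other irradiated cells, which reach 90.8.

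The high cells carried the whole selecting set together. All 11 control cells with a sum of 30 or more had a UMI of each of the 6 genes, and 4 of the 5 irradiated cells did, with 1 lacking Prss34. Among cells with a sum of 3 to 10, 18 of 27 in control and 36 of 127 after irradiation had UMIs of 1 of the 6 genes only, and 4 control members rested on fewer than 3 UMIs. The control sums at 30 or more ran from 109 to 981 with a median of 355, and the irradiated sums were 465, 90.8, 77.6, 64.8 and 35.7. These values come from the rule and are a description.

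Where the transcripts of each gene lay differed between genes. Prss34 was nearly confined to the high cells, which held 99.1% of its control UMIs and 88.3% of its irradiated UMIs. The high cells held 71.5% of Mcpt8 UMIs in control and 6.60% after irradiation, and 69.6% and 5.60% of Ms4a2 UMIs. Hdc was mostly outside the members, with 86.2% of its control UMIs and 80.5% of its irradiated UMIs in the rest of the library. Mcpt8 was detected in 7.76% of the remaining control cells and 30.0% of the remaining irradiated cells, at median depths of 16100 and 29734 UMIs. In B lineage cells, which should lack it, Mcpt8 was detected in 0 of 115 control cells, where a count of 0 allows up to 2.61% of cells with a UMI (3 cells of 115) and the exact interval reaches 3.16%, and in 1 of 29 irradiated cells, at median depths of 22003 and 20420 UMIs. Hdc was detected in 11.3% and 21.1% of the remaining cells and in 7 of 115 and 1 of 29 B lineage cells. Pooled over the remaining cells, Mcpt8 stood at 0.0648 per 10000 in control and 0.222 after irradiation.

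The high cells carried basophil genes beyond those used to select them. The basophil genes of a list that excludes the selecting genes (Cd200r3, Il6, Csf1, Cd63 and others) stood at a median of 16.5 times the level of the rest of the library in control and 18.4 times after irradiation, with 14 of 16 and 15 of 15 measured members at least 2-fold higher. Of the 18 genes on the list, Il13 and Ccr3 had 0 UMIs in the 11 control and 5 irradiated cells. Cd200r3 had UMIs in 10 of 11 and 2 of 5. Over all measured genes the shares at least 2-fold higher were 14.2% in control and 27.7% after irradiation. In both libraries at once, 517 of 5333 (9.69%) were at least 2-fold higher than the rest in both libraries and 471 of 5249 (8.97%) at least 2-fold lower. With so few cells these folds describe 11 and 5 cells. They are a description with no test, since the cells were chosen by genes that vary together with these.

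Of the granule proteases, Mcpt8 in the 11 high control cells ran from 26.4 to 308 UMIs per 10000 with a median of 168. In the 5 irradiated cells it was 141, 71.3, 28.6, 3.64 and 1.91. Prss34 ran from 19.8 to 630 in control with a median of 198, and was 291, 8.17, 1.91, 0.728 and 0 after irradiation. For Mcpt8 2 irradiated cells and for Prss34 4 irradiated cells lay below every control cell, and the highest irradiated cell lay inside the control range. Cpa3, the carboxypeptidase A of mast cell granules, ran from 5.50 to 76.4 with a median of 41.0 in control, and was 78.0, 41.7, 39.8, 19.6 and 9.53 after irradiation, so the ranges overlapped. Srgn, the proteoglycan core on which such granules are packed, stood at 26.1 to 67.8 in control and 57.2 to 64.0 after irradiation.

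The receptor chains overlapped between the libraries. In control their medians were below those of Mcpt8 and Prss34, while in 2 irradiated cells Fcer1a, at 18.2 and 17.1, was above both proteases. Ms4a2 ran from 4.0 to 16.5 in control with a median of 9.96, and was 9.81, 5.72, 5.38, 5.09 and 3.32 after irradiation. Fcer1a ran from 3.0 to 34.0 with a median of 14.8, and was 19.9, 18.2, 17.2, 17.1 and 3.36 after irradiation. Fcer1g, the signalling chain that FcεRI shares with other receptors, ran from 8.38 to 33.6 in control and 7.28 to 26.7 after irradiation, against pooled levels of 0.785 and 1.39 in the rest. Gata2, the transcription factor, ran from 4.69 to 28.2 in control with a median of 11.5 and from 4.09 to 13.3 after irradiation, against 0.374 and 0.428 in the rest. It had a UMI in each of the 16 cells, while Gata1 had one in 4 of 11 and 1 of 5.

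Kit and Ly6a, genes of the sort gate, had UMIs in few of the high cells. Kit, which encodes the c-Kit receptor, had a UMI in 5 of 11 control cells and 2 of 5 irradiated cells, and Ly6a, which encodes Sca1, in 1 of 11 and 2 of 5. In the rest of the library Kit was detected in 5930 of 7151 control cells and 4012 of 4988 irradiated cells, and Ly6a in 5850 and 4463. Pooled levels gave another order for Kit, at 0.874 in the control high cells against 1.32 in the rest and 3.95 in the irradiated high cells against 0.728, where 1 cell stood at 14.1. Ly6a was at 0.125 and 0.86 against 1.56 and 2.20. Cd34, carried by many progenitors, had a UMI in 3 of 11 and 1 of 5. The gate list held Kit and Ly6a beside Cd34 and Ly6e, which encode neither c-Kit nor Sca1. Of its 4 genes, 1 was at least 2-fold higher than the rest and 2 lower in control. After irradiation 2 were higher and 2 lower. Ly6e was higher in both libraries, at 14.2 and 26.3 against 5.87 and 8.38. Transcript counts do not measure the surface proteins on which the cells were sorted. Of the neutrophil-primed genes, Ctsg was above the rest in the high cells of both libraries, pooled at 35.8 and 23.2 against 2.95 and 14.7. Mpo was above the rest in control (14.4 against 3.85) and below it after irradiation (4.81 against 14.1). Elane and Prtn3 were below the rest in both, Elane at 0.187 and 0.172 and Prtn3 at 1.37 and 3.27. Car1, an erythroid carbonic anhydrase, had UMIs in 0 of 11 and 1 of 5.

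Among the 16 high cells, 3 had no UMI of Ctsg, the cathepsin G of neutrophil granules, and this split was chosen after the values were seen. These 3, 2 from control and 1 irradiated, were also the smallest, with 5248 to 6063 UMIs against 8114 to 26072 in the other 13. They had the highest values of Cd200r3, a basophil surface receptor, at 11.4 to 18.1 against 0 to 11.1 in the others. Ccl3, a chemokine, stood at 112 to 381 in them and 0.728 to 57.2 in the others, and Hdc at 22.9 to 24.7 against 0.672 to 16.0. Csf2rb, the shared receptor chain for IL-3, IL-5 and GM-CSF, was at 3.81 to 14.9 against 0.762 to 4.46. Cpa3 stood at 7.47 to 9.53 against a median of 41.1 and a range of 5.50 to 78.0, and Ms4a3, a gene of granulocyte progenitors, had 0 UMIs in the 3 cells and UMIs in 12 of the other 13. The 3 cells thus lay at 1 end of several genes at once, in both libraries.

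One irradiated cell had mast cell genes that the other high cells lacked or nearly lacked. It had 14875 UMIs and a sum of 90.8, with 21 UMIs of Kit and 116 of Cpa3 and none of Prss34. Mcpt8, known best from basophils, made up 71.3 of that sum. Gzmb, a granzyme that mast cells can carry, stood at 60.5 per 10000 in it, Mcpt1, another mast cell protease, at 39.0 and Cma1, the mast cell chymase, at 24.9. Cma1 and Mcpt1 had 0 UMIs in the 11 control cells and the other 4 irradiated cells, and Gzmb was at most 1.66 in them. Mcpt4 and Tpsb2, proteases of connective tissue mast cells, had 0 UMIs in all 16.

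**Figure D2:**
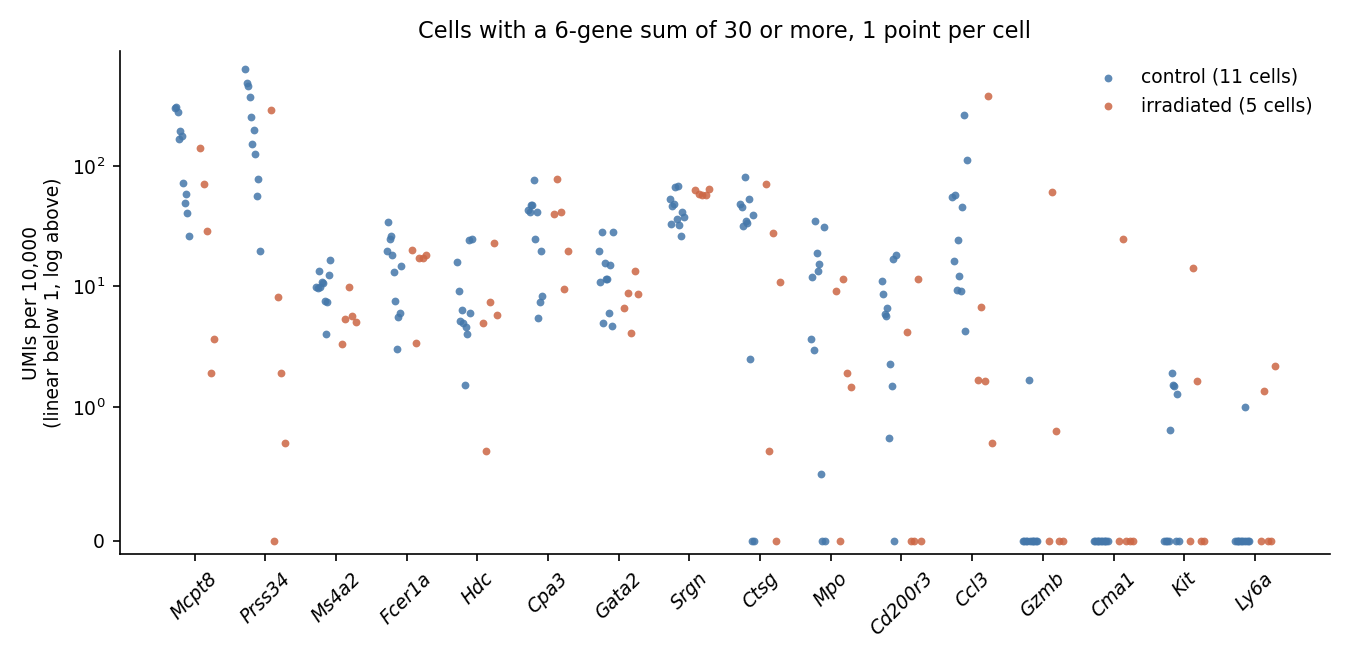
UMIs per 10000 of 16 genes in the 11 control and 5 irradiated cells with a 6-gene sum of 30 or more, 1 point per cell; the axis is linear below 1 and logarithmic above. Cpa3, Gata2, Ms4a2 and Fcer1a overlap between the libraries, Prss34 reaches lower values in the irradiated cells, and a single irradiated cell stands out at Gzmb, Cma1 and Kit.

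The 8 irradiated cells at a sum of 10 to 30 were mixed. Cpa3 had UMIs in 6 of them and Gata2 in 7, at pooled levels of 11.2 and 3.86. Kit was at 13.1 per 10000 in 1 of them and at most 2.87 in the others. Gzmb had UMIs in 2 of them, reaching 31.6 per 10000, and Cma1 in 1, at 2.87. In a cell of 4368 UMIs, Prg2, the major basic protein of eosinophil granules, had 189 UMIs, 433 per 10000, and Prg3 and Epx, also eosinophil granule genes, stood at 36.6 and 27.5. That cell had 0 UMIs of Cpa3, and Prg2 had 0 UMIs in the 39 control members.

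The cells with a sum of 3 to 10 fell into different kinds according to the gene that gave most of their selecting UMIs. Mcpt8 led in 9 control and 56 irradiated cells, Hdc in 12 and 29, Ms4a2 in 4 and 29, Fcer1a in 1 and 8, and 1 and 5 cells were tied. Prss34 and Cyp11a1 led in none. As shares of the library, Mcpt8-led cells were 0.125% in control (0.0573 to 0.237) and 1.09% after irradiation (0.826 to 1.42). Ms4a2-led cells were 0.0556% (0.0152 to 0.142) and 0.566% (0.379 to 0.811). For both, the counting intervals did not overlap, and the irradiated cells were deeper, with medians of 36656.5 against 20047 UMIs and 21374 against 17342.5.

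**Figure D3:**
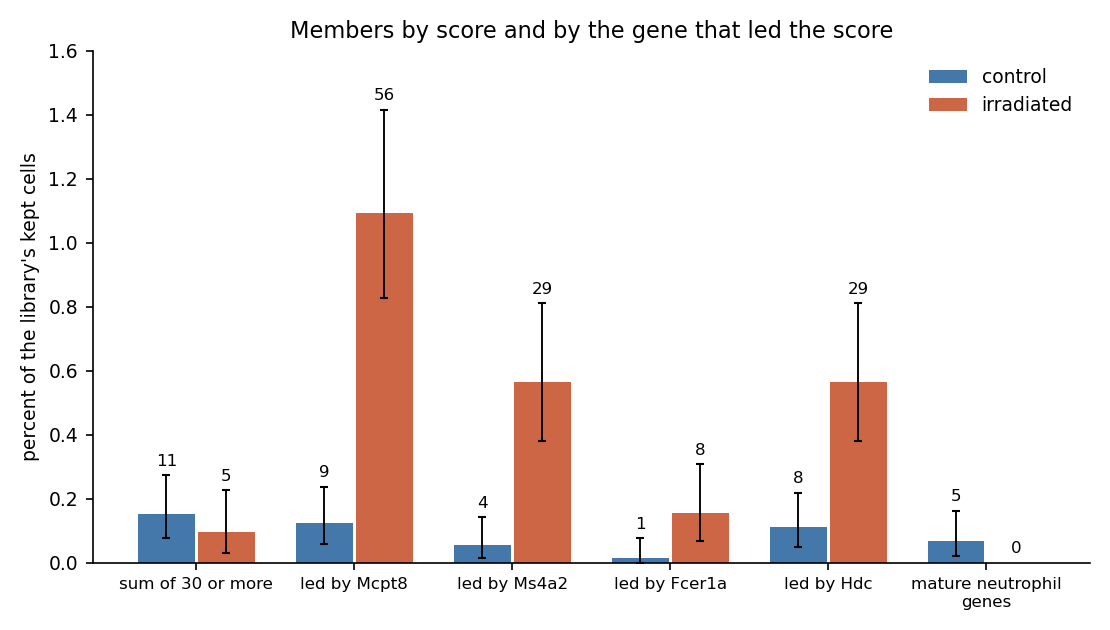
Members as a percent of the kept cells of each library, with exact 95% counting intervals and the number of cells above each bar: cells with a sum of 30 or more, cells at 3 to 10 by leading gene, and the cells with mature neutrophil genes. The irradiated bars are higher for every leading gene, the control bar is higher at 30 or more with overlapping intervals, and the 8 irradiated cells at 10 to 30 and the tied cells (1 and 5) are not drawn.

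Ms4a2-led cells shared genes with the high cells that the rule had not used. Cpa3 had UMIs in 4 of 4 control cells and 28 of 29 irradiated cells, at pooled levels of 6.37 and 5.15 per 10000, against 0.134 and 0.204 in the rest. Gata2 was detected in 4 of 4 and 29 of 29, at 2.23 and 3.02. Csrp3, a LIM-domain protein gene, stood at 3.18 and 1.53 against 0.00705 and 0.0338 in the rest. Il1rl1, the receptor for IL-33, had UMIs in 2 of 4 and 26 of 29. Apoe, the lipid carrier, stood at 7.96 and 18.2, against 6.74 and 12.9 in the high cells and 1.05 and 2.35 in the rest. Gata1, the erythroid and mast cell partner of Gata2, had UMIs in 2 of 4 and 24 of 29 at 0.637 and 0.824, against 0.312 and 0.344 in the high cells. Klf1, an erythroid transcription factor, had UMIs in 2 of 4 and 17 of 29. Itga2b, the platelet integrin chain CD41, was at 1.49 and 1.09 against 0.119 and 0.144 in the rest. Unlike the high cells, most irradiated Ms4a2-led cells had UMIs of the gate genes, Kit in 26 of 29 and Ly6a in 17 of 29.

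The 8 irradiated Fcer1a-led cells resembled them, with Cpa3 in 8 of 8 at 2.12, Gata2 in 8 of 8 at 3.54 and Apoe in 8 of 8 at 21.8. In both groups after irradiation the neutrophil-primed genes were below the rest of the library: Elane, the neutrophil elastase, stood at 0.25 and 0.354 against 7.43, and Prtn3, proteinase 3, at 4.4 and 5.91 against 24.6. Mpo, myeloperoxidase, was at 2.93 and 1.97 against 14.1. The 4 control Ms4a2-led cells had Mpo at a pooled 9.98 against 3.85 in the rest. The deepest of these cells, with 46340 UMIs, weighed most in that level. Its neutrophil-primed genes summed to 34.3, against 0, 3.80 and 12.5 in the others. Whether the position of Mpo differed between the libraries apart from that cell was not tested.

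Mcpt8-led cells had mixed values for genes that the rule did not use. Cpa3 had UMIs in 3 of 9 and 13 of 56, against 8.85% and 16.6% of the remaining cells. Its pooled levels were 0.591 and 0.521, above the 0.134 and 0.204 of the rest. These levels leaned on single cells, at 2.08 in a control cell of 43328 UMIs and 11.2 in an irradiated cell of 49072 UMIs. Gata2 stood at 0.376 and 0.242, near or below the rest, and Apoe was at 0.752 and 0.28, below the rest. Of the neutrophil-primed genes, Prtn3 stood at 9.82 and 28.7 against 7.30 and 24.6 in the rest, Mpo at 8.91 and 21.3 against 3.85 and 14.1, and Ctsg at 13.2 and 24.0 against 2.95 and 14.7. Elane had 0 UMIs in the 9 control cells and UMIs in 45 of 56 irradiated cells, at 8.31. Ms4a2 and Fcer1a had a UMI in 0 of 9 and each in 1 of 56, which the grouping by leading gene partly fixes and which is a description only. When the cells at 3 to 10 were taken by a protease part (Mcpt8 plus Prss34) of at least 3, which left 8 and 39 cells, 0 of 5037 measured genes (0.00%) were 2-fold higher than the rest in both libraries, with 29 of 5249 (0.552%) 2-fold lower, led by Car1, S100a8, Pf4, H2-Aa and Cd74. With the protease part below 3, 48 of 5245 (0.915%) were higher, led by Csrp3, Cpa3, Il1rl1, Siglecf and Slc7a8, and 30 of 5249 (0.572%) lower. This split differs from the grouping by leading gene, since 1 control and 17 irradiated Mcpt8-led cells had a protease part below 3. As their values were mixed, Mcpt8-led cells are named by their leading gene here and not as mast cells or basophils.

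Hdc-led cells were mixed. After irradiation Cpa3 had UMIs in 21 of 29 at 3.77 and Gata2 in 24 of 29 at 1.52, while Mpo stood at 31.0, Prtn3 at 28.9 and Elane at 8.65, so genes of both kinds were present in the pooled cells. Cebpe, a transcription factor of granulocyte maturation, had UMIs in 14 of 29, at 0.933. In control, 5 members led by Hdc carried genes of mature neutrophils. Retnlg, Camp, Ngp and Ltf together stood at 389 to 1071 per 10000 in them and at 0 in the other 34 control members, and S100a8 and S100a9, the calprotectin chains, were pooled at 1792 and 1963. They had 2808 to 7150 UMIs and 0 UMIs of Ms4a2, Fcer1a, Cpa3 and Kit. No irradiated member had that sum at 20 or more. The remaining 8 control Hdc-led cells had Cpa3 UMIs in 1 and Dntt, a lymphoid enzyme, at 14.5 against 4.47 in the rest. Without the 5 cells, control members numbered 34, or 0.473%.

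**Figure D4:**
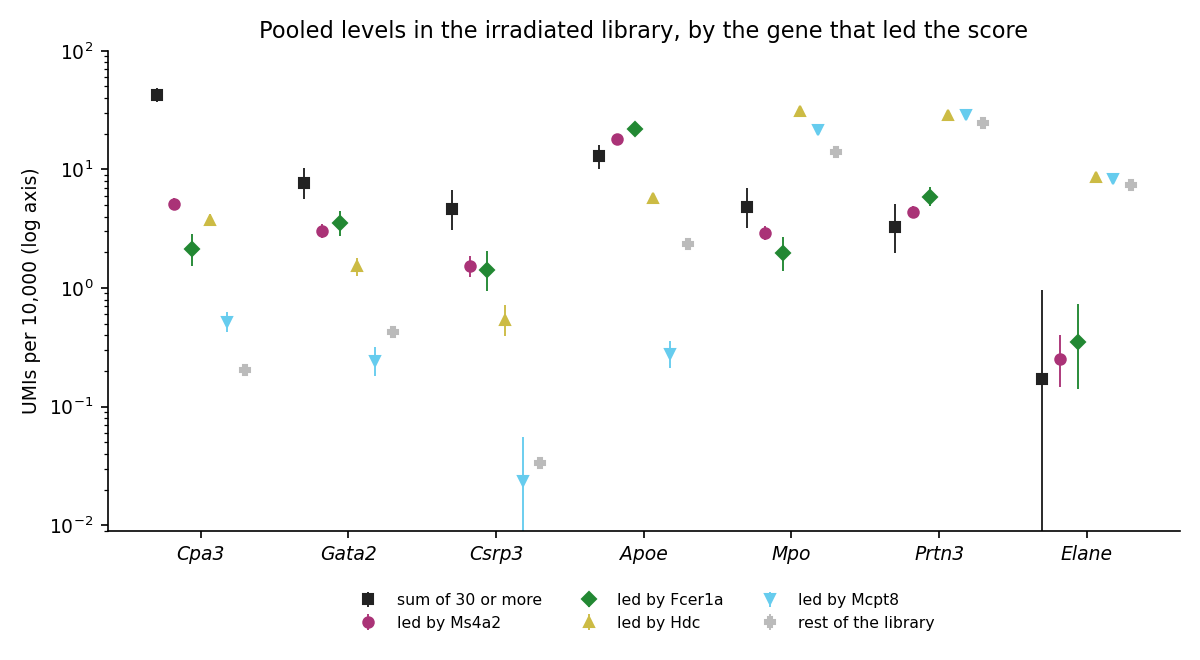
Pooled levels (UMIs per 10000, log axis, with exact 95% counting intervals) of 7 genes in the irradiated library for cells with a sum of 30 or more, for cells at 3 to 10 by leading gene and for the rest. Cpa3, Gata2, Csrp3 and Apoe are high in the Ms4a2-led and Fcer1a-led cells, and Mpo, Prtn3 and Elane are high in the Mcpt8-led and Hdc-led cells and in the rest.

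Against the rest of their own library, all members pooled had 50 of 5234 measured genes (0.955%) at least 2-fold higher in both libraries and 23 of 5249 (0.438%) at least 2-fold lower, with the genes of the rule left out and a mean of 0.2 per 10000 needed. Cells at 3 to 10 alone had 21 of 5165 (0.407%) higher and 21 of 5249 (0.400%) lower. Cpa3 stood at 9.91 in control members and 2.95 in irradiated members, 74.2 and 14.5 times the rest. Csrp3 stood at 2.15 and 0.662, Il1rl1 at 0.337 and 0.274, and Alox5, the lipoxygenase that starts leukotriene synthesis, at 0.691 and 0.129. Siglecf, an eosinophil lectin gene, stood at 0.177 and 0.284, 6.89 and 5.29 times the rest, and 3 cells held 72.7% of its control UMIs. Ltf was also among them, through the neutrophil cells. The genes lower in members were led by genes of antigen-presenting and dendritic cells: Ly86, H2-Aa and Irf8, which stood at 0.337 and 0.306 against 1.01 and 1.14 in the rest.

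The comparison of irradiated with control members asks how these cells differed 15 days after the dose. Among 5240 genes at 0.2 per 10000 or above on average, 96 (1.83%) were at least 2-fold higher after irradiation and 241 (4.60%) at least 2-fold lower. In the rest of the library 57 of 5250 (1.09%) were higher and 124 (2.36%) lower. Of the 96 genes, 90 were also measured in the rest, where 14 were among the 57 higher and 0 among the 124 lower. Of the 241, 146 were measured in the rest, where 54 were among the 124 lower and 3 among the 57 higher. The 2 sets of members differed in makeup, since the cells at 30 or more were 11 of 39 and held 160270 of 622403 UMIs in control, but were 5 of 140 and held 58156 of 4124673 after irradiation. The values for cells at 3 to 10 without the mature neutrophil cells (23 and 127 cells) are therefore given beside them: 135 of 5172 genes (2.61%) higher and 182 (3.52%) lower. With the neutrophil cells kept in, 127 of 5169 (2.46%) were higher, of which 115 (2.22%) had a counting interval above 0, and 191 (3.70%) were lower, all with an interval below 0.

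In all members the 6 selecting genes and most basophil genes were lower after irradiation, and among cells at 3 to 10 the values differed from these. Mcpt8 stood at 40.7 in control members and 3.05 in irradiated members, a log2 ratio of -3.74 (-3.84 to -3.64), but was 0.28 higher on the log2 scale among cells at 3 to 10. Cpa3 was at -1.75 in all members and 0.01 at 3 to 10, and Gata2 at -1.43 and 0.60. Prss34 stood at 64.2 and 0.909 (-6.14). Fcer1a was at -2.95 in all members and 0.55 at 3 to 10, Ms4a2 at -1.80 and -0.37, and Hdc at -1.27 and -0.42, while Cyp11a1 was at -3.14 in all members. The band of 3 to 10 bounds the sum of the 6 selecting genes in both libraries, at pooled levels of 4.68 and 4.49. Ratios of these 6 genes in the band are therefore partly fixed by the choice of cells and are a description only. Over all genes in members, 26.4% were at least 25% higher and 22.3% at least 20% lower, the limits used for lists from here on. The basophil list had 1 of 15 measured genes higher and 13 lower in all members, with a median of -1.39. At 3 to 10 it had 3 of 11 higher and 7 lower with a median of -0.61, and without the neutrophil cells 3 of 9 higher and 4 lower with a median of 0.14, so the sign at 3 to 10 differed with and without the 4 control cells with mature neutrophil genes. The mast cell list had 4 of 6 measured genes higher and 1 lower in all members, with a median of 1.14. Its summed level was nonetheless lower, at 10.5 in control and 4.22 after irradiation, with 10 and 7 of its 16 genes at 0. Of its genes, Gzmb, Mcpt1 and Cma1 reached 60.5, 39.0 and 24.9 in a single irradiated cell, and Gzmb reached 31.6 among the irradiated cells at 10 to 30. At 3 to 10 without the neutrophil cells 3 of 4 were higher and 0 lower, with a median of 0.87. The summed levels there were 2.56 and 2.85. Fewer cells of a kind and less RNA per cell of that kind cannot be told apart in these pooled ratios.

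Genes of neutrophil priming were higher after irradiation. The list had 7 of 9 measured genes at least 25% higher and 0 lower in all members (26.4% and 22.3% over all genes), with a median of 1.12, and 9 of 9 with a median of 2.30 at 3 to 10 without the neutrophil cells. In the rest the median was 2.62, and over all genes in members it was 0.04. Elane stood at 0.0643 and 6.37 per 10000 in control and irradiated members, a log2 ratio of 6.63 (5.27 to 8.51), from 4 UMIs in control. When cells with a sum of 2 to 3 were let in, 8 of 46 of which carried Elane in control, its ratio was -0.28. Prtn3 stood at 4.95 and 22.5, Mpo at 8.64 and 18.7 and Ms4a3 at 2.12 and 5.71. Ctsg stood at 15.0 and 18.8, a log2 ratio of 0.32 (0.22 to 0.42). Mt1, a metallothionein, stood at 0.273 and 2.31, a log2 ratio of 3.08 beside 4.0 in the rest.

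Lymphoid-primed genes were lower. Of 8 measured genes 7 were at least 20% lower and 0 higher (22.3% and 26.4% over all genes), with a median of -2.27 in members, -2.52 at 3 to 10 without the neutrophil cells and -1.41 in the rest. Dntt stood at 3.65 and 0.179, 3 cells holding 58.1% of the control UMIs, and its log2 ratio was -4.35 in members and -1.41 in the rest. Among the genes with the largest falls in all members were those of mature neutrophils, such as Retnlg at 13.1 and 0 and Ltf at 1.80 and 0.0024. In control 3 cells held 98.0% of the Retnlg UMIs and 99.1% of the Ltf UMIs.

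Interferon response genes were higher and immediate early genes lower in members, as in the rest. In the interferon list 18 of 22 genes were at least 25% higher and 0 lower (26.4% and 22.3% over all genes), with a median of 0.82 against 0.56 in the rest, and a median of 0.78 at 3 to 10 without the neutrophil cells. Ifitm3, which restricts virus entry, stood at 5.17 and 9.28 (0.84) and Bst2, tetherin, at 1.43 and 2.91 (1.03). In the immediate early list 16 of 18 genes were lower and 2 higher, beside the same shares over all genes, with medians of -1.11 in members, -1.03 at 3 to 10 without the neutrophil cells and -1.16 in the rest. Jun stood at 10.8 and 5.38 (-1.01), Fos at 7.57 and 4.98 (-0.60), and Klf2 at 2.12 and 0.456 (-2.22). Chemokines and cytokines had 9 of 11 genes lower, where 22.3% of all genes were, with a median of -2.56 against -0.71 in the rest. At 3 to 10 without the neutrophil cells 6 of 9 were lower and 2 higher, with a median of -1.32. Ccl3 stood at 11.3 and 0.805 (-3.81, and -2.69 in the rest) and Ccl4 at 12.7 and 1.05 (-3.60, and -2.20 in the rest). Among the 12 control and 13 irradiated cells at a sum of 10 or more, the immediate early, lymphoid and neutrophil-primed medians turned to 0.37, 0.38 and -0.83.

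**Figure D5:**
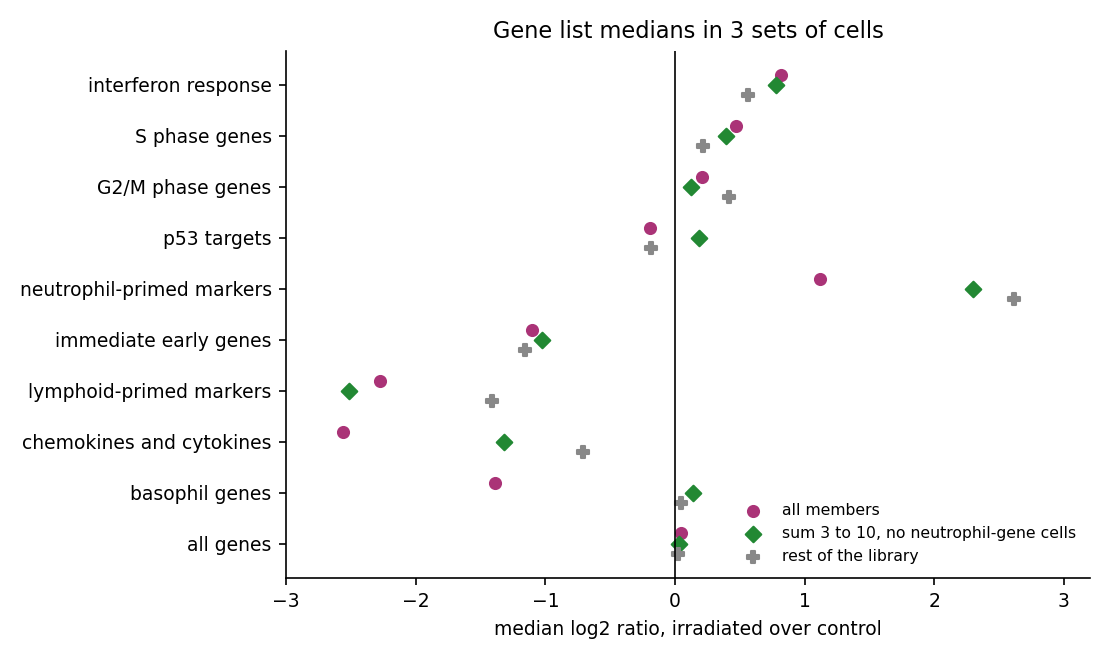
Median log2 ratio of irradiated over control for 10 sets of genes (9 lists and all genes) in all members, in cells at 3 to 10 without the mature neutrophil cells and in the rest of each library. The interferon, immediate early, lymphoid and neutrophil-primed medians lie on the same side of 0 in the 3 sets of cells, while the basophil median is at -1.39 in all members and 0.14 in the set without the neutrophil cells (-0.61 with them, not drawn).

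Receptor, signalling and transcription factor lists had medians nearer 0, read beside 26.4% of all genes higher and 22.3% lower. Of 15 cytokine receptor genes 2 were higher and 6 lower in members, with a median of -0.30, and at 3 to 10 without the neutrophil cells 5 of 14 were higher and 6 lower, with a median of -0.06. Kit stood at 1.12 and 1.02, a log2 ratio of -0.14 (-0.51 to 0.24). Of 16 genes of IgE receptor signalling 2 were higher and 8 lower, with a median of -0.38, and at 3 to 10 without the neutrophil cells 3 of 14 were higher and 3 lower, with a median of -0.16. Of 18 transcription factor genes of these lineages 3 were higher and 7 lower, with a median of -0.14, while in the same low cells 7 of 17 were higher and 5 lower, with a median of 0.17. Srgn stood at 22.6 and 19.0 (-0.25). In the p53 target list 3 of 10 genes were higher, near the share over all genes, and 5 lower, with medians of -0.19 in members and -0.18 in the rest. In those low cells 2 of 10 were higher and 4 lower, with a median of 0.19.

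S phase genes were higher after irradiation in members, though not under every choice of cells. In the list 11 of 20 genes were at least 25% higher and 0 lower after irradiation (26.4% and 22.3% over all genes), with a median of 0.47 against 0.22 in the rest, and the median was -0.09 in members with at least 3 selecting UMIs over 2 genes. In the G2/M list 3 of 21 were higher, below the share over all genes, and 1 lower, with a median of 0.20 against 0.41. After thinning to 5000 UMIs, Mki67, a marker of cycling cells, had a UMI in 11 of 36 control members (30.6%, 16.3 to 48.1) and 66 of 138 irradiated members (47.8%, 39.3 to 56.5). The shares in the rest were 23.7% (22.7 to 24.7) and 37.1% (35.8 to 38.5). Before thinning the members' shares were 41.0% and 74.3%. The members' intervals overlapped between the libraries.

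Scrublet, a doublet caller, marked 2 control and 16 irradiated cells (0.0278% and 0.312%), too few to have worked, and 0 members. Of the 6% of cells with the highest scores, 0 control members and 5 irradiated members were part, none of them with a sum of 30 or more.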

How the data were processed

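The counts deposited by the authors are raw UMIs of each gene in every barcode that was called a cell. Per the submitters' processing notes they were made with Cell Ranger 2.1.1 on mm10, while the file headers give software version 3.1.0. The disagreement is left as it stands. Barcodes were kept with at least 1000 UMIs, 500 genes and at most 10% mitochondrial UMIs, which removed 496 control and 468 irradiated barcodes.

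Levels are UMIs summed over cells and divided by their total UMIs, per 10000, so cells with more UMIs weigh more. Log2 ratios of irradiated over control carry exact Clopper-Pearson intervals conditional on the gene's total, and a 0 was replaced by 3 UMIs to give a bound. With 1 library per group, a gene was called by size alone: 2-fold at a mean of 0.2 per 10000, and for lists 25% higher or 20% lower at a mean of 0.05. The size rule was run on simulated sums with counting error only. These held no differences between cells, so that run cannot show how far single cells decide a call. No test or p-value was used, and mice cannot be told apart within a library.

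The members and the 28 gene lists were chosen with earlier results of these data known, so they are no independent evidence. Named genes were the 6 selecting genes, up to 4 of each list with the highest level and any list gene past 2-fold, the 15 highest and 12 lowest against the rest, and the 12 highest and 12 lowest after irradiation. Predicted, mitochondrial, ribosomal, immunoglobulin, haemoglobin and sex-linked genes were left out of the ranking. The other genes named for single sets of cells, the grouping by leading gene and the split by Ctsg were chosen after their values were seen. Scrublet (scanpy 1.11.5) scored doublets, and python 3.11.15 was used throughout. There were 15 alternatives planned and 3 added after seeing the data: cells at 3 to 10 only, no shared barcodes, and no cells with Retnlg, Camp, Ngp and Ltf at 20 per 10000 or more.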

Additional observations from a re-analysis of the deposited data

Results flagged for a closer look

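Barcodes removed by the filter also met the 6-gene rule, and they enter no comparison above. They were 11 of 496 removed control barcodes (2.22%, 95% interval 1.11 to 3.93) and 34 of 468 removed irradiated barcodes (7.26%, 5.08 to 10.0). Most rested on a single UMI, 9 of 11 and 23 of 34, and most were over the mitochondrial limit, 10 of 11 and 33 of 34, with median mitochondrial shares of 33.2% and 41.7%. Of the irradiated barcodes 4 had at least 3 UMIs over at least 2 of the genes and 2 reached a sum of 30 or more; of the control barcodes 0 did either.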

How the results depend on the processing

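No paired analysis was possible because each group is 1 library. For the shares and gene counts, 60 values under other settings stayed close and 51 moved. The control share was 1.18% at a sum of 2 or more, 0.278% at 5, 0.167% at 10, 0.278% with 3 UMIs over 2 genes, 1.04% thinned and 0.376% at 3 to 10. The irradiated share was 5.11%, 0.917%, 0.254%, 2.01% and 4.44% under the first 5 of these, and 1.37% without Mcpt8 and Prss34 in the rule. The difference was 3.93 points at 2, 0.638 at 5, 0.0866 at 10, 0.962 without the proteases and 3.40 thinned, always with irradiated higher. Genes higher after irradiation numbered 45 at 2, 322 at 5, 763 at 10, 189 with 3 UMIs over 2 genes, 255 without the proteases, 297 thinned, 253 with cells weighted equally, 686 without each gene's 3 highest cells, 231 at a mean CPM of 10 and 20 at 50. Genes lower numbered 371 at 5, 686 at 10, 436 weighted equally, 68 without the 3 highest cells, 454 at CPM 10 and 95 at CPM 50. The balance of higher and lower thus turned at a sum of 10 or more. It also turned without the 3 highest cells, but 3 cells are a larger part of 39 control members than of 140 irradiated members. That setting bears unequally on the libraries, so it cannot show a change of direction by itself. Genes higher than in the rest numbered 32, 122 and 406 at 2, 5 and 10, 78 with 3 UMIs over 2 genes, 142 without the proteases, 20 at 3 to 10 (21 where the rest leaves out the members at 10 or more, as in the report), 79 weighted equally, 22 without the 3 highest cells and 23 at CPM 50. Genes lower than in the rest numbered 11, 50 and 350 at 2, 5 and 10, 45 with 3 UMIs over 2 genes, 64 without the proteases, 13 thinned, 61 without the 3 highest cells, 44 at CPM 10 and 5 at CPM 50. List medians turned at a sum of 10 or more to 0.13 for IgE receptor signalling, 0.38 for lymphoid, -0.83 for neutrophil-primed, -0.68 for S phase and 0.37 for immediate early genes. The IgE median was 0.22 without the 3 highest cells, the setting that bears unequally on the libraries. The S phase median was -0.0914 with 3 UMIs over 2 genes and -0.0012 without the proteases. Single genes turned as well: at 3 to 10 Mcpt8 was 0.28, Fcer1a 0.55, Cpa3 0.0056 and Gata2 0.60, at 10 or more Mpo was -1.26, Ms4a3 -0.65 and Jun 0.0802, and at 2 or more Elane was -0.28. For Mcpt8 and Fcer1a, which are selecting genes, the band of 3 to 10 partly fixes the ratio. The cause of these shifts was not tested, except that the makeup of the members changes with the limit by construction. With 11 and 5 high cells, depth and cell number limit all statements on them.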

Other observations

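Cyp11a1 lay mostly outside the members, and its direction differed from that of Mcpt8 and Hdc. Of its UMIs 72.5% in control and 51.5% in irradiated cells were in the rest of the library, where its detection was 2.22% in control (1.89 to 2.59) and 0.822% after irradiation (0.590 to 1.11), at median depths of 16100 and 29734 UMIs. Its pooled level in the rest was 0.0123 and 0.0032 per 10000. In B lineage cells it had a UMI in 0 of 115 and 0 of 29. Which cells of the rest held it was not analysed here.

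Genes of mature neutrophils (Retnlg, Camp, Ngp and Ltf at 20 per 10000 or more) were present in 12 of 7190 kept control cells and 2 of 5128 kept irradiated cells. Of these, 5 and 0 were members, all 5 through Hdc.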
